A study of Mus musculus with 14 samples.

Results

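The clustered protocadherins are cell surface proteins of the cadherin superfamily that neurons use to tell their own branches from those of other cells. Their genes lie in 3 neighbouring clusters, alpha, beta and gamma. In the alpha and gamma clusters each gene has its own promoter and a large variable first exon, which codes for the extracellular part, the membrane span and a first stretch of the cytoplasmic part, and this exon is spliced to a few exons shared by the whole cluster. The beta genes have no shared exons, and a beta protein is coded by essentially 1 large exon. A neuron transcribes only a small choice of the alternative promoters, whereas the C-type genes at the ends of the alpha and gamma clusters are used more uniformly. H3K27me3, trimethylation of lysine 27 of histone H3, is set by Polycomb repressive complex 2 and is typical of genes that are kept silent.

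The members described here are the 57 protein-coding genes on mouse chromosome 18 whose symbols begin with Pcdha, Pcdhb, Pcdhga, Pcdhgb or Pcdhgc, of 21853 protein-coding genes with a coding transcript on the assembled chromosomes (GRCm38, GENCODE release 21 for mouse). They comprise 14 genes of the alpha cluster (Pcdha1 to Pcdha12 and the C-type genes Pcdhac1 and Pcdhac2), 22 beta genes and 21 genes of the gamma cluster (12 of type A, 6 of type B and the C-type genes Pcdhgc3, Pcdhgc4 and Pcdhgc5). The choice rests on names and positions and uses no measurement. Pcdhgb8 was left out because the annotation calls it a polymorphic pseudogene. All members are on the plus strand.

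H3K27me3 was mapped by ChIP-seq in iMEF cells, immortalised mouse embryo fibroblasts from Ash2l fl/fl mice with an inducible Cre-ER recombinase. All groups, the controls included, expressed FKBP-HA2-ASH2L, a lentiviral fusion of human ASH2L to an FKBP tag, in place of the deleted endogenous Ash2l, and were of 1 selected clone, NG3. The groups were cells with no dTAG treatment and cells exposed for 30 min, 2 h, 4 h, 8 h or 16 h to dTAG-13, a small molecule that directs the tagged protein to degradation. There were 12 H3K27me3 libraries in 6 groups of 2, and 2 libraries of input chromatin (control and 16 h).

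The study asked what the loss of ASH2L, which belongs to the COMPASS complexes that set H3K4 methylation, does to such marks over time. The file analysed is 1 list of 153983 H3K27me3 sites brought together over all samples, with a position for each site and no value for any library. Control and treated cells could therefore not be compared, and no replicates stand behind any value below. In which samples a site was called, and its read depth, are unknown. A gene without a site in the list may still carry the mark at a level below the peak caller's threshold. The list holds no expression values either. As a check of the labelled cell type, sites over the first exon were counted in 2 sets of 12 markers. A site was found for 1 of 12 fibroblast markers (Col1a1, with a site of 389 bp) and for 9 of 12 neuronal markers. Among all protein-coding genes the share was 20.9%. The neuronal count lay far above this share, while 12 genes are too few to tell the fibroblast count from it. No test was run.

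Of the 57 members, 32 (56.1%, 95% Wilson interval 43.3 to 68.2%) had an H3K27me3 site over the first exon, where an overlap of 1 bp was counted. The same was found for 20.9% of all protein-coding genes. The first exons of the members are long, with a median of 2611 bp against 241 bp over all genes. Whether this length has a part in the higher share was not tested. Of the 561 protein-coding genes with a first exon of at least 2 kb, 43.5% had a site over it. These include 56 of the members, and among the other 505 the share was 42.0%. The share of the members thus lay well above that of all genes and nearer to that of the other genes with first exons of like length, whose 42.0% was just under the interval of the members. The interval covers the counting of genes only, and neighbouring genes are not independent of each other.

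A site within 1 kb of the start was found for 24 members (42.1%, interval 30.2 to 55.0%), against 25.8% of all protein-coding genes and 38.3% of those with a long first exon. Each of these 24 also had a site over the first exon, so that 25 members had neither. The start itself lay in a site in 6 members, Pcdha10, Pcdhac1, Pcdhac2, Pcdhb11, Pcdhb16 and Pcdhga1.

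Most of the sites were narrow. Of the first exons of all members together, 16.9% of the bases were inside a site, less than the 21.03% of all protein-coding first exons and the 25.0% of those of at least 2 kb. The median over members was 9.99%, against a median of 0 over all protein-coding genes. A site at least 500 bp wide lay over the first exon of 13 members (22.8%), against 17.8% of all protein-coding genes and 33.7% of those with a long first exon. With sites at least 1 kb wide, 9 members remained (15.8%), against 15.2% and 27.1%. Counted by wide sites, the members therefore lay close to all genes and below genes with first exons of like length.

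By cluster, the share of members with a site over the first exon was highest in beta and lowest in gamma. A site was found for 16 of 22 beta genes (72.7%, interval 51.9 to 86.9%). In the alpha cluster it was 9 of 14 genes (64.3%, interval 38.8 to 83.7%), and in gamma 7 of 21 (33.3%, interval 17.2 to 54.6%). The median first exon was also longest in beta, at 3714 bp against 2494 bp in alpha and 2607 bp in gamma. Whether length has a part in this order was not tested. The gamma share thus lay above the 20.9% of all protein-coding genes and below the 42.0% of the other genes with a long first exon. Within 1 kb of the start the counts were 14 in beta (63.6%), 6 in alpha (42.9%) and 4 in gamma (19.0%). The backgrounds there were 25.8% of all genes and 38.3% of those with a long first exon, both above gamma. The intervals of beta and gamma overlap slightly, and no test was run, since the members of a cluster are neighbours on 1 chromosome and not replicates. The covered share of all first exons of a cluster was 20.1% in beta, 19.9% in alpha and 9.72% in gamma. In alpha this value rested on the C-type genes, as 78.8% of the bases of the first exons of Pcdhac1 and Pcdhac2 were covered and 8.88% in the other 12 genes. With only sites at least 1 kb wide, alpha lay above beta, with 10.1% of the first exon bases covered against 8.98%.

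**Figure D1:**
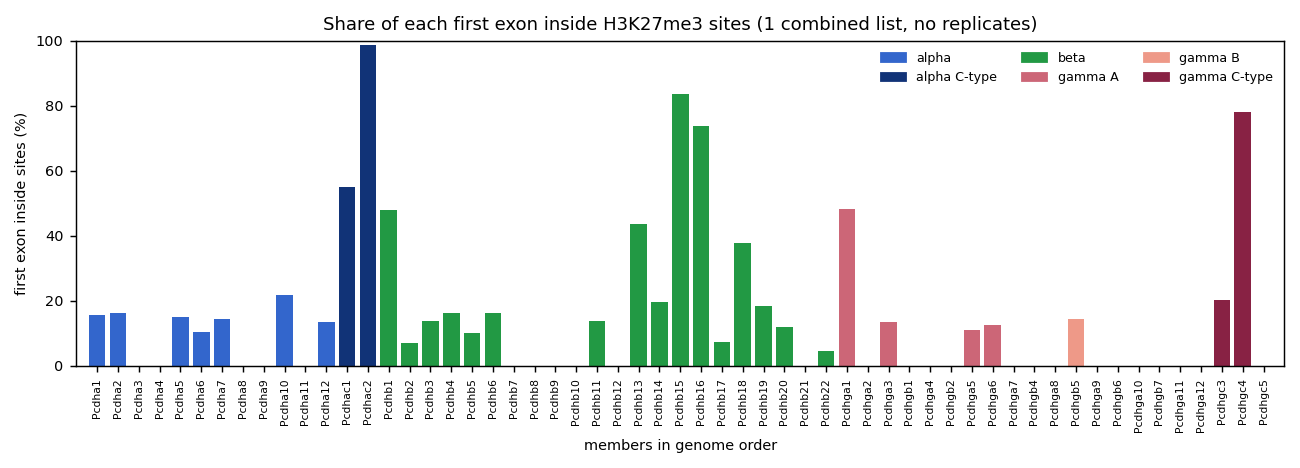
The bars give the share of each member's first exon (%) that lies inside H3K27me3 sites, in genome order from Pcdha1 to Pcdhgc5 and coloured by gene group, from the 1 combined list without replicates. Only 5 members, Pcdhac1, Pcdhac2, Pcdhb15, Pcdhb16 and Pcdhgc4, are covered over at least 50% of the first exon, and 25 have no bar.

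The C-type genes held 3 of the 5 first exons that were covered to at least 50%. Pcdhac2 was covered almost completely, at 98.8% of its 3028 bp, by the widest site of the clusters. This site of 3384 bp (chr18:37143112-37146495) reached from -391 to 2992 bp of the start, close to the end of the exon. A further site of 1274 bp (chr18:37141585-37142858) lay upstream of it, from -1918 to -645 bp of the start. Pcdhac1 was covered at 55.1% by 4 sites, of which the widest (1253 bp, chr18:37089324-37090576) spanned the start from -689 to 563 bp.

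In the gamma cluster, Pcdhgc4 was covered at 78.1% by 3 sites between 549 and 2930 bp from the start, the widest of 1204 bp (chr18:37816806-37818009), and its start was free. Pcdhgc3 had 1 site of 521 bp from 1128 to 1648 bp after the start, which covered 20.3% of the exon. Pcdhgc5 had none, and the nearest site, the last one of Pcdhgc4, ended 1504 bp before its start. The C-type genes were thus not uniform, with 4 of 5 holding a site and covered shares from 0 to 98.8%.

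Among the 12 alpha genes that are not of the C-type, 7 had a site over the first exon and 5 had none (Pcdha3, Pcdha4, Pcdha8, Pcdha9 and Pcdha11). None of them was covered over more than 21.7% of the exon, the value of Pcdha10. This gene had 2 sites, 1 of 390 bp that crossed the start (chr18:37005156-37005545) and 1 of 200 bp from 2047 bp on. Pcdha2 followed with 16.2%, also from 2 sites, of 200 and 206 bp. Pcdha1 was covered at 15.6% by 1 site of 387 bp that began 1182 bp after the start. Pcdha5, Pcdha6, Pcdha7 and Pcdha12 each had 1 site of 258 to 358 bp and were covered at 10.3 to 15.1%. The 5 genes without a site stood between genes with one, in runs of 2 at most. For Pcdha3 the nearest site was 4477 bp from the start, and for Pcdha4 7830 bp.

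The beta genes code for proteins without the shared cytoplasmic part, and this group had the most sites and the longest median first exon. The genes with and without a site followed each other in runs. Pcdhb1 to Pcdhb6 all had a site, the next 4 genes, Pcdhb7 to Pcdhb10, had none, and Pcdhb13 to Pcdhb20 formed the longest run of the clusters, 8 genes with a site each. Pcdhb12 and Pcdhb21 had none, while Pcdhb11 had 2 and Pcdhb22 had 1. In the run of 8 genes 33.1% of the first exon bases were covered, against 11.1% from Pcdhb1 to Pcdhb12. This run was delimited from the sites themselves, so its value is a description only.

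Pcdhb15 was covered at 83.5% by 2 sites of 941 and 1398 bp, the latter at chr18:37474632-37476029. Its neighbour Pcdhb16 was covered at 73.9% by 2 sites, of which 1 reached the start and the other, of 2954 bp (chr18:37478910-37481863), was the widest of the cluster. Pcdhb1, which lies apart from the other beta genes, had 1 site of 1237 bp from 938 to 2174 bp after the start and was covered at 47.8%. The other beta genes with a site lay between 4.39% (Pcdhb22) and 43.6% (Pcdhb13). At Pcdhb7 the nearest site was 5439 bp from the start. Pcdhb8 is a special case, because the transcript chosen by its start has a first exon of 185 bp only. The nearest site was 18858 bp upstream of that start, and the whole gene was free of sites. The stretch from Pcdhb7 to Pcdhb10 was part of the longest interval of the clusters without a site, 85.0 kb (chr18:37336264-37421276).

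Among the 18 gamma genes of types A and B, 5 had a site, and 13 had none. Pcdhga1, the first gene of the cluster, stood out from the other type A genes with a site of 1325 bp across its start (chr18:37661706-37663030) and a covered share of 48.1%. Pcdhga3 (13.5%), Pcdhga6 (12.5%) and Pcdhga5 (10.9%) each had 1 site of 278 to 351 bp. Pcdhgb5 was the 1 type B gene of 6 with a site, of 368 bp and 1658 bp after the start, which covered 14.4% of the exon. Pcdhga2 and Pcdhga4 had none, with the nearest site 5923 and 8388 bp away, and nor had Pcdhgb1 and Pcdhgb2, at 3411 and 4661 bp. The other genes without a site were Pcdhga7, Pcdhgb4, Pcdhga8 and a run of 6 genes, Pcdhga9, Pcdhgb6, Pcdhga10, Pcdhgb7, Pcdhga11 and Pcdhga12. This run lay in a stretch of 74.5 kb without a site (chr18:37733035-37807537), which ended within the first exon of Pcdhgc3.

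**Figure D2:**
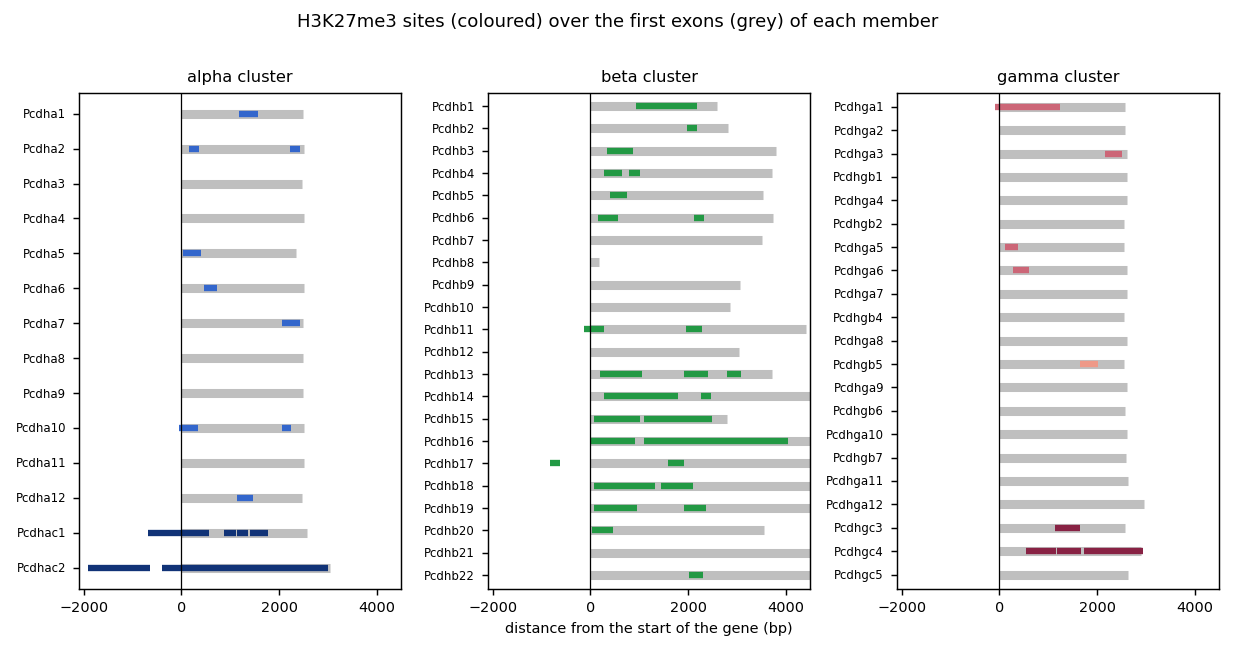
Each row is a member, with its first exon in grey, its H3K27me3 sites in colour and the distance from the start in bp, and first exons longer than 4500 bp are drawn only to that point. Sites are found mostly inside the exons, at various distances from the start, and sequence before the start is free in most rows.

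The sites did not lie centred on the starts but inside the exons. Of the bases from 1 kb upstream to the start, 3.38% were covered, in 7 members. Over the first 500 bp of the gene 23.8% were covered, in 21 members, and over the next 500 bp 20.9%, in 17 members. Among all protein-coding genes the mark was spread more evenly, with 14.8% of the bases covered in the 1 kb upstream and 17.7% in the first 500 bp. Genes with a first exon of at least 2 kb had 18.2% and 26.0%. The sequence before the starts of the members was thus covered less than in either background, while the value of the first 500 bp lay between theirs. Of the bases covered upstream, those of Pcdhac1 and Pcdhac2 made the alpha cluster stand apart, at 10.6% against 1.61% in beta and 0.414% in gamma.

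The share of members covered at a single distance was highest 300 bp after the start, with 17 of 57 members (29.8%), while over all protein-coding genes it was highest at 250 bp, with 17.97%, and over genes with a first exon of at least 2 kb at 950 bp, with 29.2%. In the beta cluster the highest point was at 400 bp with 50.0% of the genes, in alpha at 150 bp with 35.7% and in gamma at 300 bp with 14.3%. Deeper in the exon the share rose and fell more than once. It was 14.04% at 1050 bp, 21.1% at 1200 bp, 14.04% at 1800 bp and 22.8% at 2150 bp, or between 8 and 13 members, and then dropped to 7.02% at 2500 bp. Many first exons end near there, and only 18 span the whole stretch from 2500 to 3000 bp. In these 18 members 13.4% of that stretch was covered, against 5.80% over all members. Taken in stretches of 500 bp, coverage was nearly level, with 17.3% of the bases from 1000 to 1500 bp, 16.3% from 1500 to 2000 bp and 18.6% from 2000 to 2500 bp. At 2150 bp the share in beta was 40.9%. Genes with a first exon of at least 2 kb had 24.6% at 1800 bp, 25.3% at 2150 bp and 22.1% at 2500 bp, each above the members, and all protein-coding genes 14.4%, 13.7% and 13.1%.

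Part of the coverage deep in the exon came from separate sites. In 14 members, 15 sites over the first exon began at least 1.5 kb after the start, and 13 of the 15 overlapped the stretch from 2000 to 2500 bp. In 8 of these members, Pcdha2, Pcdha10, Pcdhb6, Pcdhb11, Pcdhb13, Pcdhb14, Pcdhb19 and Pcdhgc4, another site lay in the first 1 kb of the exon. In 6, Pcdha7, Pcdhb2, Pcdhb17, Pcdhb22, Pcdhga3 and Pcdhgb5, the deep site was the only one over the exon. In the opposite case, 15 members had a site in the first 1 kb and none that began so late, and Pcdha1, Pcdha12 and Pcdhgc3 had a single site in between. This pattern was noticed in the positions of the sites and is given as a description.

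**Figure D3:**
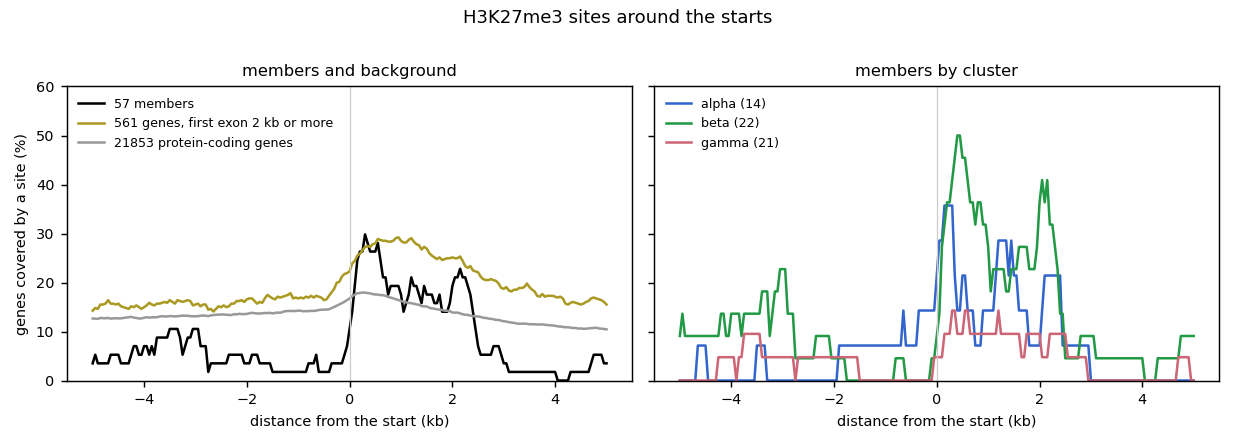
The lines give the percentage of genes covered by an H3K27me3 site at each distance from the start (kb, steps of 50 bp), on the left for the 57 members and both background sets and on the right for the members by cluster. The members are below both backgrounds before the start, reach 29.8% at 300 bp, vary between 14.04 and 22.8% from 1050 to 2150 bp and drop to 7.02% at 2500 bp, near the ends of many first exons.

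Along the genome, the 3 clusters held 58 sites. The beta cluster (chr18:37264938-37524479) had 30 sites in 259.5 kb, or 115.6 per Mb, the alpha cluster (chr18:36930184-37187661) 18 sites in 257.5 kb, or 69.9 per Mb, and the gamma cluster (chr18:37661793-37841873) 10 sites in 180.1 kb, or 55.5 per Mb. Chromosome 18 as a whole had 48.4 sites per Mb and all assembled chromosomes 56.5. The order of the clusters was the same by covered length, with 7.43% of the bases in beta, 4.26% in alpha and 3.18% in gamma, against 4.30% of chromosome 18 and 5.93% of all chromosomes. The sites of the clusters were about as wide as others, with a median of 379.5 bp against 409 bp on chromosome 18 and 455 bp over all chromosomes. Of the 58 sites 11 were at least 1 kb wide, and 7 had the smallest width in the list, 200 bp.

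Within the clusters most sites lay over the first exons of the members. Of the 58 sites 50 overlapped a first exon, each that of 1 member only. The first exons made up 34.3% of the beta cluster, 30.6% of the gamma cluster and 13.7% of the alpha cluster, but held 93.0%, 93.4% and 64.2% of the covered bases. The remaining sequence outside first and shared exons was covered at 0.795% in beta, 0.310% in gamma and 1.33% in alpha. Of the other 8 sites, 2 lay within 1 kb of a start only, namely the one upstream of Pcdhac2 and one of 200 bp upstream of Pcdhb17. A site of 1070 bp (chr18:37184879-37185948) overlapped the shared exons of the alpha cluster, of which 35.0% of the bases were covered, whereas no site overlapped the shared exons of the gamma cluster. The other 5 lay between genes or in introns, with 200 to 506 bp.

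**Figure D4:**
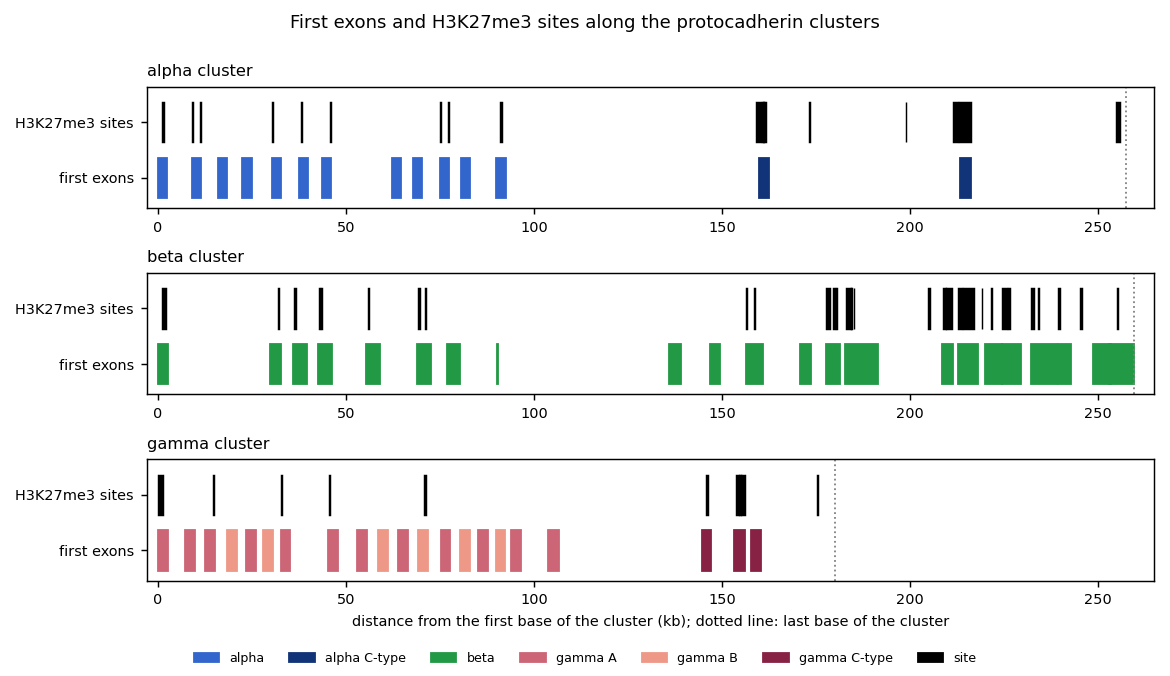
The map shows the first exons of the members (lower boxes, coloured by group) and the H3K27me3 sites (upper boxes, black, with an outline that widens narrow sites slightly) in each cluster, with the distance from the first base of the cluster in kb. Of the 58 sites 50 stand over a first exon, and stretches of 85.0 kb in beta and 74.5 kb in gamma hold no site.

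The sequence between the clusters held sites as well. The 77.3 kb between alpha and beta held 7 sites and were covered at 3.69%, and the 137.3 kb between beta and gamma held 11 sites and were covered at 6.42%. The widest site in the latter, 4540 bp (chr18:37646073-37650612), was wider than any site in the clusters. It lay upstream of Taf7, which codes for a subunit of the general transcription factor TFIID and has no site within 1 kb of its own start. Of the 31 protein-coding neighbours within 500 kb, 4 (12.9%) had a site over the first exon and 7 (22.6%) within 1 kb of the start. The windows of Arap3 and of the non-clustered protocadherins Pcdh1 and Pcdh12 were covered completely.

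The first exons of the members are similar to each other, and reads that match several places may have been removed before the peaks were called. How much of each first exon occurs again in the assembly was therefore measured with words of 75 bases, the number of cycles of the sequencing kit. The median over members was 1.08% of the words. It was 9.15% in the alpha cluster, with a highest value of 18.3% in Pcdha6, 0.731% in beta and 0 in gamma. More than 10% of the words were repeated in 8 members, 6 alpha genes and the gamma genes Pcdhgb1 and Pcdhgb2. Of these 8, 4 had a site over the first exon, against 28 of the 49 others. All C-type genes had 0. Across the 57 members the covered share of the first exon and the share of repeated words had a Pearson correlation of -0.28 and a Spearman correlation of -0.24, between genes that share the libraries and the chromosome. The values were -0.66 and -0.48 within the 14 genes of the alpha cluster, where the C-type genes have the highest covered shares and no repeated words, -0.44 and -0.46 in beta and -0.24 and -0.33 in gamma. Whether lost reads have a part in the missing sites was not tested.

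The clusters also have unlike base composition. The ratio of observed to expected CpG dinucleotides in the first exon had a median of 0.665 in the alpha cluster, 0.402 in beta and 0.532 in gamma. Over the first 500 bp it was 0.721 in alpha, 0.351 in beta and 0.656 in gamma, so that the cluster with the most sites had the fewest CpG there. A CpG-rich start, with over 50% G and C and a ratio over 0.6 in the 500 bp to either side, was found in 3 members, Pcdhac2, Pcdhgc3 and Pcdhgc4. All 3 had a site over the first exon, but only that of Pcdhac2 reached the CpG-rich stretch. The nearest site to the start was 1128 bp away at Pcdhgc3 and 549 bp away at Pcdhgc4. Across the 57 members the covered share and the CpG ratio had a Pearson correlation of -0.22 and a Spearman correlation of -0.21, with -0.62 and -0.45 in alpha, -0.14 and -0.19 in beta and -0.19 and -0.08 in gamma. In alpha, Pcdhac1 and Pcdhac2 combine the highest covered shares with the lowest ratios, 0.439 and 0.562. Members with a site had a median ratio of 0.455 and those without a median of 0.577. These 2 sets differ in their make-up by cluster, as 16 of 22 beta genes had a site and 14 of 21 gamma genes had none.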

How the data were processed

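H3K27me3 ChIP-seq libraries and inputs of iMEF cells were sequenced by the authors, trimmed with Trim Galore, aligned with BWA to mm10 (GRCm38.p6), filtered with samtools following ENCODE, merged with Picard and reduced to the lowest coverage. The authors called broad peaks with MACS (MACS2 per the labels) and deposited 1 list over all samples, whose start and end positions (unit other, bp) carry no count, score or signal. Versions, the peak threshold and the rule for combining peaks are not given in the sources used here. Columns with values per library numbered 0, so depth is unknown and the planned description needed no test.

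Listed starts were treated as 0-based with an open end, and positions are printed 1-based. The first exon was that of the coding transcript that starts farthest upstream and begins its coding sequence there. The GENCODE release 21 annotation gives the symbol Pcdha11 to 2 genes, and the one starting at chr18:37005203 was called Pcdha10 as in RefSeq, whose starts matched all 57 members. The 3 read-through models across the clusters were not counted as members. Wilson intervals cover counting error only. Overlaps, covered bases and 75-base words on both strands were computed with Python 3.11.15 and numpy 2.4.6, and the functions were tested on simulated data.

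Values in full were given by rule for the C-type genes, the 3 members with the largest and the 2 with the smallest covered share in each other group, the 5 widest sites, and at most 2 genes per list with the widest site at the start. Other members are named to account for all. The members, lists and rules were chosen with earlier results of these data known. No sequence of the members is printed.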

Additional observations from a re-analysis of the deposited data

How the results depend on the processing

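A result was taken as moved where it changed by more than 1.5 times. This was the case for 45 of 108 recomputed values of 23 results, nearly all through the width of the sites. With only sites at least 500 bp wide, members with a site over the first exon numbered 13 (alpha 2, beta 8, gamma 3), members with a site within 1 kb 12 (alpha 2, beta 8, gamma 2) and sites in the clusters 20 (alpha 4, beta 12, gamma 4). The covered share of first exons was then 11.1% for all members, 10.1% in alpha and 6.42% in gamma, and that of the clusters 2.71% in alpha and 1.98% in gamma. With sites under 1 kb dropped, the first exon count was 9 (alpha 2, beta 5, gamma 2), the 1 kb count 6 (alpha 2, beta 3, gamma 1) and the sites 11 (alpha 4, beta 5, gamma 2). First exons were covered at 7.79% in all (alpha 10.1%, beta 8.98%, gamma 4.39%), windows at 5.08% (beta 3.88%, gamma 2.59%) and clusters at 2.71% in alpha, 3.09% in beta and 1.36% in gamma. With at least 50% of the first exon covered, 5 members remained (alpha 2, beta 2, gamma 1). Without members in which over 10% of the words are repeated, 5 of 8 alpha genes had a site over the first exon, and with a window of 2 kb 7 gamma genes had a site near the start. Each of these alternatives drops sites or genes, asks for more coverage or widens the window. The alpha count of 5 is out of fewer genes, and with all members it was 9 of 14.

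No result moved when sites closer than 1 kb were joined, when 200 bp of overlap were asked for, with a window of 500 bp, with the start of any transcript, with the clusters bounded by first exons, or with the start of the RefSeq gene, which was added after seeing the data, as was the background of genes with a first exon of at least 2 kb. No paired analysis was possible because every site stands for all samples at once, and leave-one-out values do not exist for such a list. Depth, peak height and the time of treatment behind each site are unknown.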

Other observations

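Other cadherins included genes with far wider sites at their starts than any clustered gene, and genes with none, such as Pcdh7, Cdh2 and Fat1. Over all protein-coding genes, 20.9% had a site over the first exon. Of the 12 non-clustered protocadherins, which are single genes spread over the genome, 9 had a site over the first exon, and 50.0% of the bases of their first exons were covered, against 16.9% in the clustered genes. The widest sites at their starts were those of Pcdh1 (12479 bp) and Pcdh8 (8782 bp). Of the 19 classical cadherins 8 had a site over the first exon, with the widest at Cdh22 (54814 bp) and Cdh15 (8995 bp). Of the 9 Fat, Dachsous and flamingo cadherins 6 had one, with the widest at Dchs2 (7345 bp) and Celsr1 (7330 bp). Among the 12 neuronal markers the widest sites were those of Rbfox3 (23530 bp) and Elavl3 (7970 bp).

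Of 18 genes whose products act on the protocadherin clusters, among them Ctcf, the cohesin genes, Smchd1 and DNA methyltransferase genes, none had a site over the first exon. The share over all protein-coding genes was 20.9%, and the first exons of the 18 are short, with a median of 194 bp. Setdb1, a methyltransferase for lysine 9 of histone H3, had a site of 298 bp within 1 kb of its start, and Pds5a, a cohesin regulator, one of 204 bp. Other gene families that lie in clusters gave different counts. A site over the first exon was listed for 25 of 39 Hox genes (64.1%) and 33 of 53 Krt genes (62.3%). It was listed for 259 of 1134 Olfr genes (22.8%, close to the 20.9% of all genes). Of the Ugt1a genes, a further cluster of alternative first exons, 4 of 9 (44.4%) had one. In the Hox genes 57.01% of the first exon bases were covered, in the Krt genes 55.4%, in the Olfr genes 14.7% and in the Ugt1a genes 27.2%. These are counts in 1 list, and no set was tested against another.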
